A study of Homo sapiens with 4 samples.

Results

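The HOX genes are 39 human genes in 4 clusters, HOXA on chromosome 7, HOXB on chromosome 17, HOXC on chromosome 12 and HOXD on chromosome 2. They were taken as every probe whose annotated symbol is HOXA, HOXB, HOXC or HOXD followed by a number. This rule found 22 probes for 18 genes, among 47228 probes on the array. The other 21 HOX genes have no named probe here and were not analysed here. Names were at hand only for probes detected on at least 1 array, and not for all of them. Of these 24733 probes, 18007 had 1 gene symbol, so a HOX gene without a named probe is not shown to be undetected. Expression was measured on 4 Illumina bead arrays of CWR22Rv1 cells, a human prostate carcinoma line that came from a xenograft relapsed after castration. In 2 samples the cells carried the empty pLKO.1 vector, and in 2 they carried shRNA to Siah2, which encodes a ubiquitin ligase. All 4 samples were of stably infected cells selected and kept in puromycin with serum, and no androgen treatment is named. The labels do not say whether replicates came from separate cultures, how many shRNA sequences were used or whether a line is 1 clone, and the p-values therefore rest on a spread between samples that may be technical. In such bulk RNA, fewer cells of a type and less RNA per cell cannot be told apart.

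HOX genes encode homeodomain transcription factors that give cells their position along the body axis. Each cluster is a row of genes numbered in paralog groups. Low-numbered genes act toward the head, and high-numbered genes act in the posterior body, which includes the urogenital tract. HOX proteins bind DNA together with PBX and MEIS cofactors, while Trithorax proteins keep the clusters active and Polycomb proteins keep them silent. Retinoic acid induces HOX genes in the embryo. In the adult prostate the best known member is HOXB13, a posterior gene of the luminal epithelium.

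In the knockdown cells HOXB13 fell and HOXC4, HOXC8 and HOXC13 rose. The 6 other tested HOXB genes did not pass the threshold, and HOXB2, HOXB4 and HOXB9 had no named probe. The small prostate gene PRAC2, which lies next to HOXB13, fell too. The threshold throughout is an adjusted p under 0.05 by limma, a linear model fitted to all 20750 tested probes with Benjamini-Hochberg adjustment. Testing required a detection p under 0.05 on at least 2 arrays. The detection p is a deposited p-value, the chance that background alone gives a signal as high. A change is the shSiah2 mean minus the pLKO.1 mean of normalized log2 intensity. Where a gene had several tested probes, the one with the highest mean stood for it. Of the 13 HOX genes tested, 3 rose, 1 fell and 9 did not pass. Among all 11894 named genes tested, 7.24% passed, 2.72% as rises and 4.51% as falls. Over all tested probes these shares were 6.19%, 2.47% and 3.72%. HOXC8, 1 of the 3 rises, reached the test only through the shSiah2 arrays, HOXC9 with their help, and HOXB1 only through the pLKO.1 arrays. The HOX counts are therefore a description and not support for a shift of the HOX genes.

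The RefSeq promoter table (build GRCh38.p14) holds 7 of the 18 genes. Shown here are the 250 bases before the start that HOXC4 and HOXC5 share, because HOXC4 rose and was detected on every array, and the same stretch before each of the 2 PRAC2 starts. HOXB13 is not among the 7. Capitals mark TAAT on either strand (ATTA when read on the printed strand), the core that many homeodomains bind.
HOXC4 and HOXC5, chr12:54016638-54016887, plus strand: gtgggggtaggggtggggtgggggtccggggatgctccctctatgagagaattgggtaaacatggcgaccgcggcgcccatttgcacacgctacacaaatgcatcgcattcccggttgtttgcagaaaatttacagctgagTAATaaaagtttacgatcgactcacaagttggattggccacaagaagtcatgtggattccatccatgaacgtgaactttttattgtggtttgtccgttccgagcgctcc
PRAC2 start 1, chr17:48722935-48723184, plus strand: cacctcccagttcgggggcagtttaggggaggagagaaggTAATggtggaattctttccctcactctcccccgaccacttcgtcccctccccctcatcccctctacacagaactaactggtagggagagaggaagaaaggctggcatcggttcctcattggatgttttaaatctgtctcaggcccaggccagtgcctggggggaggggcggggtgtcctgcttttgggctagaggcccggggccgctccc
PRAC2 start 2, chr17:48723442-48723691, plus strand: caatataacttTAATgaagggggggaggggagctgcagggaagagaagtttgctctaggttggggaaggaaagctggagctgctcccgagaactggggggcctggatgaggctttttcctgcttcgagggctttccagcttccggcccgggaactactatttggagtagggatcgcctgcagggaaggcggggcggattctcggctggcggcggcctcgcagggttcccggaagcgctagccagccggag

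Each of these stretches held TAAT 1 time on either strand, a motif found in 47.5% of all 34943 promoter windows of that length. The 6 distinct windows of the 7 HOX genes all held it. None of the 3 printed stretches held TGATNNAT, a joint site of PBX and HOX proteins, on either strand (6.49% of all windows). The HOXC4 and HOXC5 stretch held 14 CG dinucleotides, against a median of 11 over all windows. These are matches of letters and show no binding.

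SIAH2, the target of the shRNA, had signals of 334.5 and 490.5 on the pLKO.1 arrays and 185.2 and 196.8 on the shSiah2 arrays. It fell by 1.85 on the log2 scale (SE 0.251, limma adjusted p = 0.00117). Between 19862 and 20632 probes were detected per array, and the mean signal lay between 650 and 846. All 8 luminal markers with a named probe were detected on all 4 arrays. Of these, KRT8, KRT18, EPCAM, CDH1 and FOXA1 did not pass the threshold, and HOXB13, STEAP2 and FOLH1 fell. Of 10 leukocyte and endothelial markers, 4 had a named probe, CD68 alone was detected on all arrays, CD14 on 3, and KDR and LYZ on 1. CD14 lay at 0.80 and CD68 at 0.18, and neither passed. Their summed normalized level was 733 and 839 on the pLKO.1 arrays and 1198 and 675 on the shSiah2 arrays. Of 10 stromal markers, 5 had a named probe and 3 were detected on all arrays. LUM and ACTA2 rose by 1.32 and 1.10. The LUM call was lost without pLKO.1 replicate 1, at 1.25. The ACTA2 call was lost when dim probes were kept in and without pLKO.1 replicate 1, pLKO.1 replicate 2 or shSiah2 replicate 1, at 1.07, 1.14 and 0.94. DCN fell by 1.98 on the brighter of its probes, a dim probe gave 0.67, and their mean did not pass, at -0.65. COL1A1 was detected on 1 array of each group and COL1A2 on 1 array in all. The summed normalized level of the 5 stromal genes was 1712 and 1904 on the pLKO.1 arrays and 3425 and 3869 on the shSiah2 arrays. Most of this sum was LUM on every array, so it mainly follows that gene and not the stromal list. On the log2 scale LUM lay at 10.05 and 10.19 on the pLKO.1 arrays and 11.28 and 11.60 on the shSiah2 arrays. The part of these marker genes in the HOX results was not tested.

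HOX genes were unevenly seen across the clusters. The HOXA cluster had 1 named gene of 11, HOXB had 7 of 10, HOXC 7 of 9 and HOXD 3 of 9. In pLKO.1 cells, 6 and 7 HOXB genes were detected on replicates 1 and 2, against 4 and 3 HOXC genes. In shSiah2 cells, the HOXB counts were 5 and 6, and the HOXC counts were 7 and 5. With a detection p under 0.01, the HOXC counts were 3 and 3 against 6 and 5, while the HOXB counts were 5 and 6 against 5 and 5. The HOXC counts did not overlap between the groups under either limit. Genes were named only if detected on some array, and HOXC5, HOXC8 and HOXC10 were detected on shSiah2 arrays only. These counts are therefore a description and not support for a shift of the cluster. Over all probes, the share detected under 0.05 was 42.1% and 43.7% on the pLKO.1 arrays and 43.0% and 42.3% on the shSiah2 arrays. At the stricter limit it was 33.7% and 37.5% on the pLKO.1 arrays and 34.7% and 34.6% on the shSiah2 arrays. The differences in counts were not tested.

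Of the 22 HOX probes, 10 were detected on all 4 arrays and 6 on a single array, or 5 of the 18 genes on a single array at best. In all, 67.7% of the probes detected anywhere were detected on all arrays and 16.1% on a single one. The 8 genes with a detection p under 0.01 on every array were HOXB5, HOXB6, HOXB7, HOXB8, HOXB13, HOXC4, HOXC6 and HOXC13, HOXB6 through its second probe alone.

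**Figure D1:**
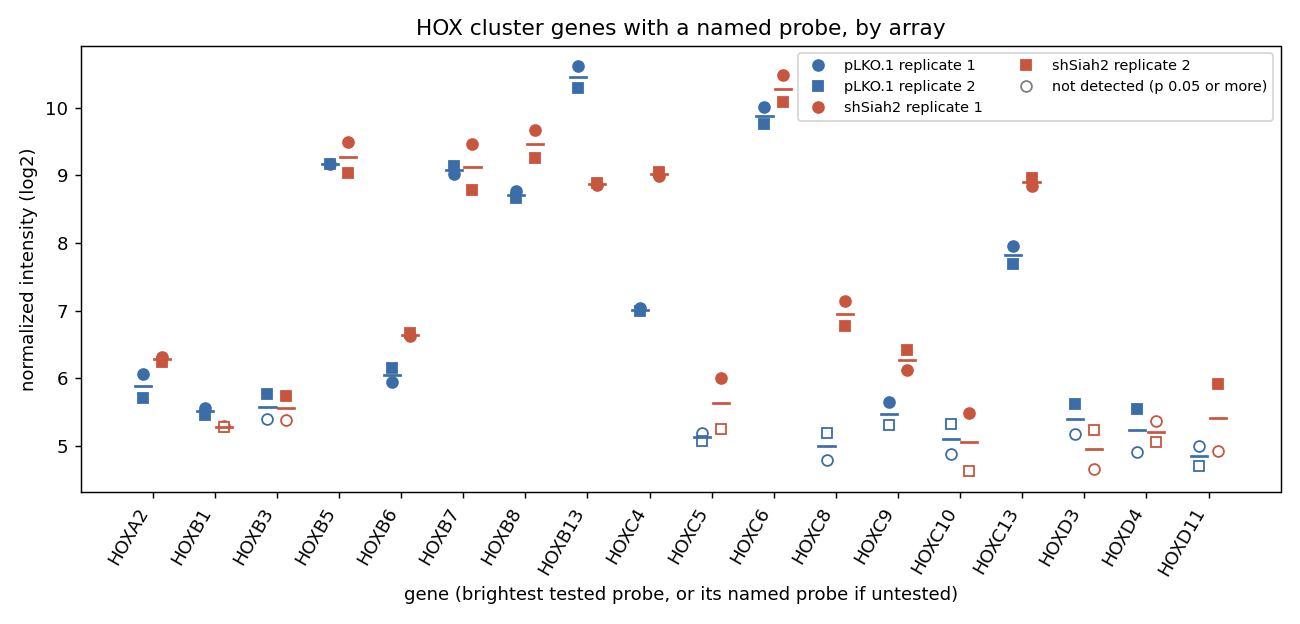
Normalized intensity (log2) of the 18 HOX genes with a named probe on each array, with pLKO.1 in blue, shSiah2 in red, circles for replicate 1, squares for replicate 2, open symbols where the probe was not detected, and bars at the group means (n = 2 each). HOXB13 lies lower and HOXC4, HOXC8 and HOXC13 lie higher on both shSiah2 arrays. Heights of different genes are not comparable, since each is a different probe.

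HOXB13 was the only HOX gene that fell. Its signals were 1469.3 and 1650.4 on the pLKO.1 arrays and 592.3 and 529.9 on the shSiah2 arrays. Both knockdown arrays lay below both control arrays, as they did for 26.0% of all named genes tested. On the normalized scale it went from 10.45 ± 0.227 to 8.87 ± 0.0221 (SD, n = 2 per group), a fall of 1.58 (SE 0.246, limma adjusted p = 0.00289). The probe, ILMN_1742677, had a detection p of 0 on every array. HOXB13 passed the threshold under each of the 14 alternatives tried, with values from -1.74 to -1.39.

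The nearest neighbours of HOXB13 on the side of HOXB9 are PRAC1 and PRAC2, small genes known for expression in prostate and distal colon. In the RefSeq annotation the PRAC1 span lies inside that of PRAC2, and an older name of PRAC2 is HOXB13-AS1, for antisense. PRAC2 had signals of 729.3 and 970.5 on the pLKO.1 arrays and 518.9 and 315.0 on the shSiah2 arrays. It fell by 1.27 (SE 0.290, limma adjusted p = 0.0256). Its call was lost without any filter on dim probes and without pLKO.1 replicate 1, pLKO.1 replicate 2 or shSiah2 replicate 2, where the value was -1.24, -1.29 and -0.86.

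PRAC1 was measured by 2 probes that gave like values. The brighter had signals of 1919.6 and 3284.9 on the pLKO.1 arrays and 1512.3 and 1296.9 on the shSiah2 arrays. The groups did not overlap on either probe. The changes were -0.74 (SE 0.247, limma adjusted p = 0.108) and -0.79 (limma adjusted p = 0.0963), and neither passed. PRAC1 did pass with no background correction, with a larger offset and with the authors' value table, at -0.70, -0.72 and -0.78.

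The HOXB genes of the central paralog groups, HOXB5 to HOXB8, help pattern the trunk, and none of them passed. HOXB8 had signals of 469.6 and 595.8 on the pLKO.1 arrays and 957.5 and 641.0 on the shSiah2 arrays. Its change was 0.75 (SE 0.253, limma adjusted p = 0.110), and both shSiah2 arrays lay above both pLKO.1 arrays. It passed under 3 of the 14 alternatives, no background correction, offset 50 and the authors' value table, at 0.63 to 0.71. HOXB6 lay at 0.59 on 1 probe (SE 0.241, limma adjusted p = 0.183) and at 0.29 on another, and the groups overlapped on the second.

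HOXB5 and HOXB7 had groups that overlapped. HOXB5 had signals of 595.4 and 804.7 on the pLKO.1 arrays and 854.6 and 573.9 on the shSiah2 arrays, with a change of 0.10 (SE 0.254). HOXB7 had signals of 544.2 and 792.9 on the pLKO.1 arrays and 843.8 and 499.9 on the shSiah2 arrays, with a change of 0.041 (SE 0.277). In HOXB5, HOXB7 and HOXB8 the shSiah2 arrays lay farther apart than the pLKO.1 arrays, with replicate 1 above replicate 2 by 0.45, 0.69 and 0.42 on the normalized log2 scale. Without shSiah2 replicate 1 the changes of HOXB5 and HOXB7 were -0.13 and -0.30, and without pLKO.1 replicate 1 that of HOXB7 was -0.016.

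The anterior HOXB genes were dim. HOXB1, a hindbrain gene, had signals of 143.1 and 147.7 on the pLKO.1 arrays and 147.3 and 147.0 on the shSiah2 arrays. It was detected on both control arrays and on neither shSiah2 array, and its change was -0.23 (SE 0.238, limma adjusted p = 0.649). HOXB3 was detected on 1 array of each group and lay at -0.017, a sign that turned under 3 of 12 alternatives.

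**Figure D2:**
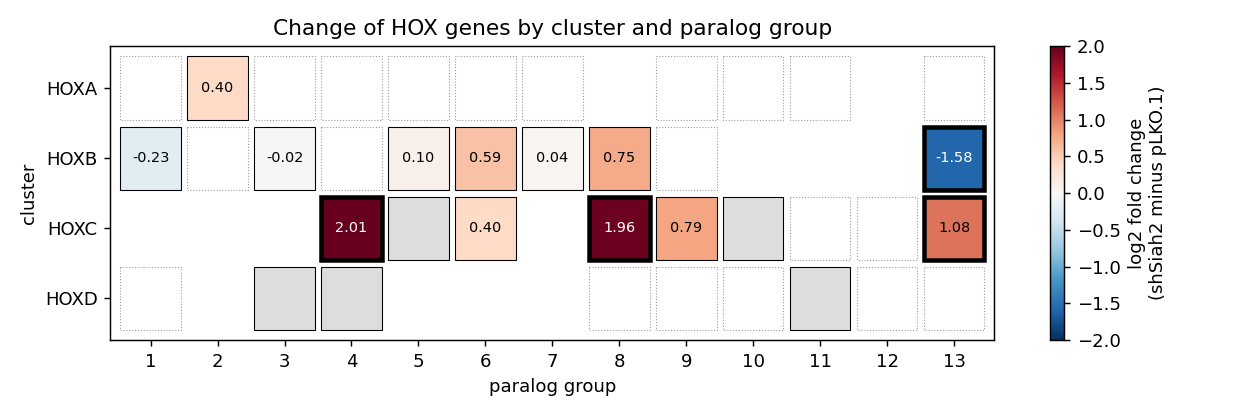
Log2 fold change (shSiah2 minus pLKO.1) of each HOX gene, with clusters as rows and paralog groups as columns. Thick frames mark genes past the threshold, grey cells are named genes that were not tested, dotted cells have no named probe and empty positions hold no gene. HOXB13 at -1.58 and HOXC13 at 1.08 stand in the same column with opposite signs.

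HOXC genes were the ones that rose. All 5 tested HOXC genes had both shSiah2 arrays above both pLKO.1 arrays, as 27.3% of all named genes did, and 3 of the 5 passed. HOXC8 and HOXC9 reached the test only through the shSiah2 arrays or with their help, so these counts are a description and not support for a shift of the cluster. The median change was 1.08 over the 5 tested HOXC genes and 0.79 over all 7 named ones, against 0.01 over all named genes tested.

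HOXC4 is a gene of the fourth paralog group. Its signals were 214.5 and 254.2 on the pLKO.1 arrays and 637.6 and 577.2 on the shSiah2 arrays. On the normalized scale it went from 7.02 ± 0.0300 to 9.02 ± 0.0414 (SD, n = 2 per group), a rise of 2.01 (SE 0.237, limma adjusted p = 0.000411). It passed in each of the 14 alternatives, at 1.40 to 2.04.

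The gene spans of HOXC4, HOXC5 and HOXC6 begin at the same base in the RefSeq gene table, while the promoter table lists the stretch printed above for HOXC4 and HOXC5 only. HOXC6, which is expressed in many prostate tumours, had signals of 993.1 and 1172.3 on the pLKO.1 arrays and 1603.1 and 1036.2 on the shSiah2 arrays on its brightest probe. That probe lay at 0.40 (SE 0.256, limma adjusted p = 0.418), and its groups did not overlap after normalization. Its value was 0.20 without shSiah2 replicate 1 and 0.60 without shSiah2 replicate 2. The 2 dim HOXC6 probes lay at 0.57 and 0.45, and neither passed. HOXC5 was detected on shSiah2 replicate 1 alone, with a signal of 176.2 there against 130.5 and 131.3 on the pLKO.1 arrays and 146.0 on the other shSiah2 array, and it was not tested. The difference in change between HOXC4 and HOXC6 was not tested.

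HOXC8, a gene of the trunk skeleton and motor neurons, was not detected on the control arrays. Its signals there were 113.0 and 136.6, with detection p-values of 0.539 and 0.123. On the shSiah2 arrays the signals were 254.0 and 212.8, with a detection p of 0 on both. It rose by 1.96 (SE 0.263, limma adjusted p = 0.00107). As a bound under the main background correction only, the rise was at least 2.83-fold. This compares the shSiah2 mean with, on each control array, the lowest detected value or HOXC8 itself, whichever was higher. The bound carries no sampling error and does not hold under other corrections. The log2 change was 0.84 without background correction, 1.25 with offset 50 and 1.19 in the authors' value table, each a smaller fold than the bound.

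HOXC9, the next gene in the row, had signals of 146.0 and 141.2 on the pLKO.1 arrays and 181.4 and 191.6 on the shSiah2 arrays. It was detected on 1 control array and both shSiah2 arrays. Its change of 0.79 (SE 0.255, limma adjusted p = 0.0946) did not pass. HOXC10 was detected on shSiah2 replicate 1 alone, with signals of 118.0 and 141.9 against 154.6 and 114.1, and was not tested.

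HOXC13, a posterior gene best known from hair and nail, had signals of 316.1 and 349.7 on the pLKO.1 arrays and 589.7 and 549.8 on the shSiah2 arrays. It went from 7.83 ± 0.191 to 8.91 ± 0.0828 (SD, n = 2 per group), a rise of 1.08 (SE 0.244, limma adjusted p = 0.0242). The call was lost without a filter on dim probes (limma adjusted p = 0.0519). Leaving out pLKO.1 replicate 1, pLKO.1 replicate 2 or shSiah2 replicate 2 also ended it, at 1.21, 0.94 and 1.02. HOXC13 and HOXB13 are the only genes of the thirteenth paralog group with a named probe here, and they passed in opposite directions.

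Genes just outside the HOXB and HOXC clusters did not pass, a comparison chosen after values were seen. Among all named genes tested, 7.24% passed by limma and 22.9% had an unadjusted p under 0.05. With so few neighbours, the counts below do not show where a change ends. Of the 5 protein-coding genes on each side of the HOXB cluster, 9 were tested and 0 passed by limma (1 at an unadjusted p under 0.05), with changes from -0.37 to 0.63. Of those around the HOXC cluster, 8 were tested and 0 passed by limma (1 at an unadjusted p under 0.05), from -0.52 to 0.63. No other tested probe of these genes passed either, and none of these 17 changes was as large as that of HOXB13, HOXC4, HOXC8 or HOXC13. Around HOXD, 6 neighbours were tested and 0 passed by limma (0 at an unadjusted p under 0.05). Around HOXA, 9 were tested and 2 passed, and HNRNPA2B1, whose brightest probe lay at -0.070, had 2 other probes that passed. CREB5, a transcription factor gene, rose by 2.44 (limma adjusted p = 9.97e-05), and JAZF1, a zinc finger gene, rose by 0.89 (limma adjusted p = 0.0487).

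**Figure D3:**
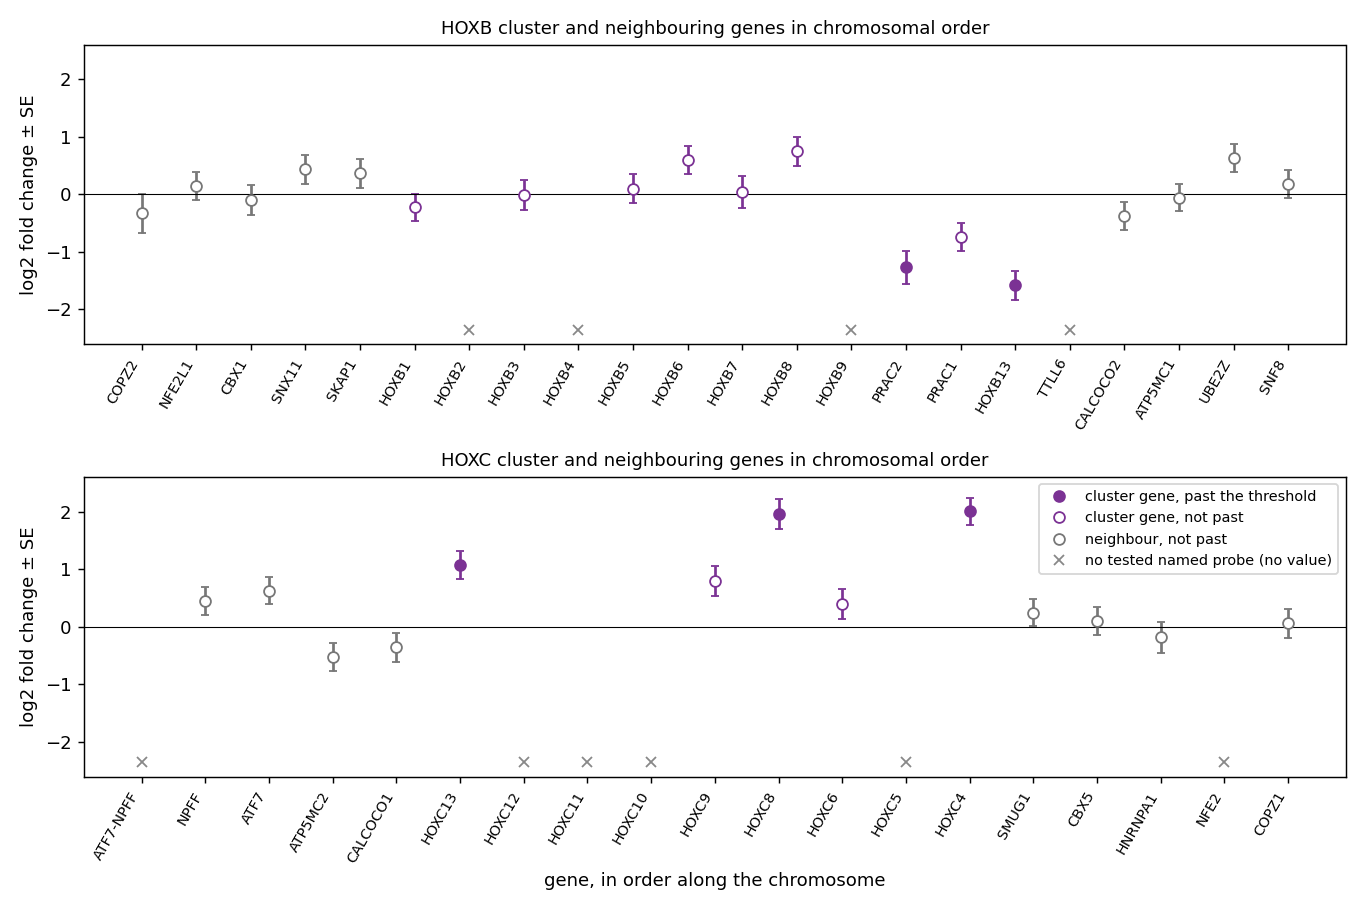
Log2 fold change ± SE of the genes of the HOXB cluster (top) and the HOXC cluster (bottom) in chromosomal order, with 5 protein-coding neighbours on each side in grey. Filled points passed the threshold, open points did not, and crosses at the lower edge are genes with no tested named probe. PRAC2 and HOXB13 are low at the posterior end of HOXB, and HOXC13, HOXC8 and HOXC4 are high in HOXC.

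The HOXA and HOXD clusters were measured through few genes. HOXA2, a hindbrain gene, was the single HOXA gene with a named probe. Its brighter probe had signals of 160.3 and 159.4 on the pLKO.1 arrays and 191.5 and 182.8 on the shSiah2 arrays, with detection p-values from 0.0026 to 0.0130. Its change was 0.40 (SE 0.248, limma adjusted p = 0.403), and its other probe was detected on 1 array. HOXD3, HOXD4 and HOXD11 were each detected on a single array, with signals between 111.4 and 168.8 over the 12 measurements, and were not tested. HOTTIP, a non-coding RNA beside HOXA13, was detected on all arrays and lay at -0.053.

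Over the 13 tested HOX genes the median change was 0.40, against 0.01 over all named genes tested, with 10 positive and 3 negative values. Of all named genes tested, 51.1% were positive. At an unadjusted p under 0.05, 7 of the 13 passed, against 22.9% of all named genes tested. The 7 and the 10 positive values include HOXC8 and HOXC9, which reached the test only through the shSiah2 arrays or with their help. HOXB1, among the negative values, reached it through the pLKO.1 arrays only. The median and these counts are therefore a description and not support for a shift of the HOX genes. Between 2 and 4 HOX genes rose under the alternatives, and 1 fell under each of them.

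HOX cofactors did not pass. Of 9 PBX, MEIS and PKNOX genes, 6 were tested and 0 passed by limma (1 at an unadjusted p under 0.05), with a median of 0.07. The shares among all named genes tested were 7.24% and 22.9%, so these counts do not set the 6 cofactors apart. MEIS1, the cofactor that binds HOXB13, had signals of 202.0 and 213.5 on the pLKO.1 arrays and 285.5 and 269.4 on the shSiah2 arrays. Its groups did not overlap, and its change was 0.71 (SE 0.245, limma adjusted p = 0.119). PBX4 lay at 0.37 and PBX2 at -0.33.

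Of 10 listed partners of HOXB13, 7 were tested, 0 rose and 1 fell, with a median of -0.096. GATA2, a zinc finger transcription factor, had signals of 714.9 and 730.8 on the pLKO.1 arrays and 338.2 and 307.8 on the shSiah2 arrays. It fell by 1.46 (SE 0.257, limma adjusted p = 0.0062), a call that leaving out pLKO.1 replicate 1 ended, at -1.22. FOXA1, a pioneer factor that opens chromatin, lay at 0.10 (limma adjusted p = 0.856), and HDAC1 at -0.34. Among luminal genes, the membrane reductase gene STEAP2 and the prostate-specific membrane antigen gene FOLH1 fell by 1.51 and 1.08. Of 10 listed luminal genes, 8 were tested and 3 fell, HOXB13 included. Falls made up 4.51% of all named genes tested, and the difference in share was not tested. FOLH1 had a second probe at -0.60 that did not pass, and its call was lost in 5 of 14 alternatives, at values from -1.10 to -0.80.

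Among the regulators that hold HOX clusters active or silent, 1 of 14 tested Trithorax and MLL genes rose and 0 fell, near the 7.24% called among all named genes. KDM6B, a demethylase that removes the Polycomb mark, had signals of 176.5 and 174.8 on the pLKO.1 arrays and 286.6 and 249.0 on the shSiah2 arrays. It rose by 1.12 (SE 0.256, limma adjusted p = 0.0255), and this call was lost when dim probes were kept in, and on leaving out pLKO.1 replicate 2 or shSiah2 replicate 1, at 0.91 and 1.02. KMT2C at 0.88 and RBBP5 at 0.86 did not pass, and a dimmer probe of KMT2E passed at 0.95 (limma adjusted p = 0.0402) beside a brighter one at 0.45 and a dimmer one at 0.86 that did not. Of 26 tested Polycomb genes, 0 passed by limma on their brightest probe (7 at an unadjusted p under 0.05), with a median of 0.10. Among all named genes tested, 22.9% had an unadjusted p under 0.05, and the 7 of 26 lie near that share. SCMH1 lay at -0.85 on its brightest probe. Of its other tested probes, 1 passed at -0.96 (limma adjusted p = 0.0384) and 1 did not, at -0.60. PHF1 lay at 0.82 and CBX7 at -0.65.

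Retinoic acid genes moved in both directions. Of 9 tested, 1 rose and 1 fell, against 2.72% and 4.51% of all named genes tested. At an unadjusted p under 0.05, 4 of the 9 passed by limma, against 22.9% of all named genes tested. The median was -0.19. ALDH1A1, which makes retinoic acid, had signals of 1027.1 and 1491.2 on the pLKO.1 arrays and 3077.8 and 5821.1 on the shSiah2 arrays. It rose by 2.01 (SE 0.344, limma adjusted p = 0.00538), and its other probe rose by 2.06. The first call was lost without a filter on dim probes. RARB, a retinoic acid receptor gene, fell by 1.28 (SE 0.246, limma adjusted p = 0.0104) on its brighter probe, while the other lay at -0.56 and did not pass. Its call was lost without pLKO.1 replicate 1, at -1.13. CRABP2, a carrier of retinoic acid, lay at -0.75 and did not pass, with -0.38 without pLKO.1 replicate 1 and -1.12 without pLKO.1 replicate 2. PDX1 was the single CDX or ParaHox gene tested. It was detected on both shSiah2 arrays and on neither pLKO.1 array, and did not pass (limma adjusted p = 0.0946). The bound on its rise, 1.25-fold, carries no sampling error.

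**Figure D4:**
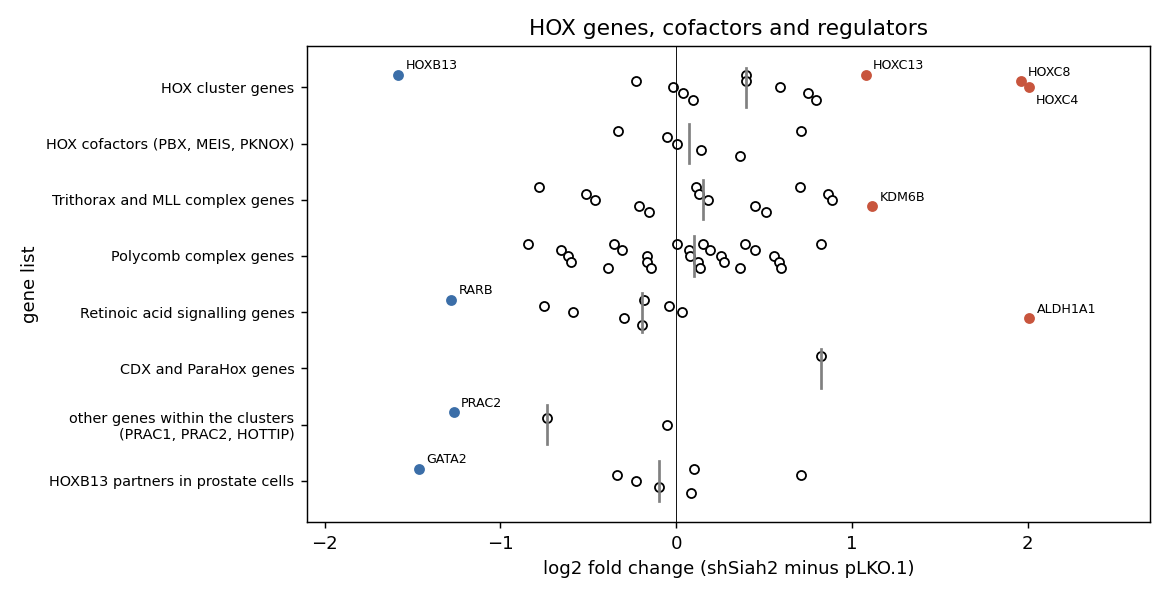
Log2 fold change (shSiah2 minus pLKO.1) of the tested genes of each list, with filled and named points for those past the threshold (red higher, blue lower), open points for the others and grey bars at the list medians. The HOX list has a median of 0.40, with HOXB13 at -1.58 and HOXC4 at 2.01.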

How the data were processed

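The authors deposited, per the file headers, a linear intensity and a detection p-value for each probe and array, with no normalization named. They also deposited a value table, on a log2 scale by comparison with the intensities, whose 24733 probes are those detected (p under 0.05) on at least 1 array. Its scaling is not given in the sources used here, nor is the array software. From the intensities, limma 3.58.1 (R 4.3.3) computed neqc values (normexp background from the detection p-values, offset 16, quantile normalization, log2), and fitted them by lmFit and eBayes with 2 groups and no covariate, tests being two-sided. The script was tested on simulated data. One platform symbol was found for 18007 probes, 17994 of them updated through Entrez IDs to RefSeq symbols (GRCh38.p14), which served for names, gene order and promoters only. No genome build is named for the files. The number of arrays limits the precision. Named genes are every HOX gene with a named probe, SIAH2, and in other lists each called member and up to 3 with the largest change. KMT2E, the second SCMH1 probe, cluster neighbours and further list members were added after their values were seen. The HOX members, lists and tests were chosen with earlier results of these data known. The alternatives were other background corrections, scalings and detection filters, the authors' value table, a replicate block, averaging the probes of a gene, and leaving out each array.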

Additional observations from a re-analysis of the deposited data

How the results depend on the processing

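HOXB13, HOXC4 and HOXC8 kept their direction and call under every alternative that could test them (HOXC8 was not tested where detection on all 4 arrays was required). HOXC13 kept its direction in all 14 and its call in 10. The count of called probes over the array was 1284, with 640 when dim probes were not filtered and 520 to 1329 when each array was left out. The HOX median of 0.40 was 0.26 without background correction, 0.59 with detection p under 0.01 on at least 2 arrays, and 0.27 to 0.57 when each array was left out. The cofactors, regulators, partners and other cluster genes gave 5 calls, and 10 without background correction, with offset 50 and with the authors' value table. The 5 calls came from lists of 6, 14, 26, 9, 1, 3 and 7 tested genes, with MEIS1 on the lists of 6 and 7. Among all named genes tested, 7.24% were called. Calls over all probes also went up in the settings with 10, to 1533, 1795 and 1831. The listed genes gave 9 calls with detection on all 4 arrays and with detection p under 0.01, 2 without a filter, and 2 to 5 when each array was left out. With the replicate block they gave 9 calls, and HOXB13 stayed at -1.58. The replicate numbers share only a label, since nothing in the labels ties them and the deviations of same-numbered arrays correlated at 0.0891. With 75th percentile scaling HOTTIP was 0.048 and HOXB3 0.056. When each array was left out, HOTTIP ran from -0.28 to 0.17, HOXB3 from -0.20 to 0.17, HOXB5 from -0.13 to 0.32, HOXB7 from -0.30 to 0.38, PBX2 from -0.71 to 0.040 and CD68 from -0.27 to 0.63. Between 9 and 18 HOX genes were detected under other detection rules, against 13. The 18, from detection on at least 1 array, was fixed in advance, since only probes detected on some array were named. Probes near background limit HOXA, HOXD and the dim HOXC genes.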
